A study of Homo sapiens with 11 samples.

Results

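The genes described here are the plasminogen activators, their receptor and inhibitors, and tissue factor with its regulators. They are 9 gene symbols chosen by name, PLAU, PLAUR, PLAT, SERPINE2, SERPINB2, F3, THBD, TFPI and TFPI2, out of 28152 in the count table. All 9 passed the filter on low counts, which kept 16653 symbols for testing.

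Urokinase (PLAU) and tissue plasminogen activator (PLAT) cleave plasminogen to plasmin, the protease that dissolves fibrin and helps to degrade matrix, and the receptor PLAUR holds urokinase at the cell surface. Serpins such as SERPINE2 and SERPINB2 inactivate these enzymes by forming a covalent complex with them. Tissue factor (F3) is the membrane receptor that starts coagulation together with factor VII, TFPI blocks that step, and thrombomodulin (THBD) turns thrombin towards activation of protein C. Tumour cells of many carcinomas make tissue factor and urokinase, and urokinase is a long-studied prognostic marker in breast cancer.

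RNA was sequenced from 11 tumours, 1 library each, of cells labelled BT-474, an established human breast cancer line that the labels call HR+/Her2+. They were grown in the fourth mammary fat pad of female athymic nude mice, which all carried a pellet with 0.72 mg of estradiol lasting 90 days, and tumours could enter the study above 95 cubic millimetres. The 6 vehicle tumours came from mice given 5% mannitol in water and the 5 treated tumours from mice given evexomostat (SDX-7320), an inhibitor of methionine aminopeptidase 2, at 12 mpk in the same solution, both under the skin every 4 days, and the label gives day 33 for every tumour. The treatment field of the labels spells the code SDX-7230 where the titles have SDX-7320. Ages are not given, and athymic mice lack mature T cells but keep vessels, platelets and myeloid cells of their own. The labels do not state that each tumour came from a separate animal, so p-values measure the spread between these tumours.

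Libraries held 22808033 to 39249329 counts. In vehicle replicate 001 the 100 top genes took 23.9% of the reads, where they took 16.2% to 17.9% elsewhere. Of the 10 markers listed for the labelled tumour type, KRT8 and KRT18 were abundant (346 and 134 CPM on average in the vehicle tumours) and ERBB2, the gene of the HER2 receptor, was at 52.5 CPM. GATA3, EPCAM and FOXA1 were at 6.26, 2.72 and 1.06 CPM, and ESR1, PGR, CDH1 and KRT19 were each below 1 CPM. The near absence of the hormone receptor transcripts ESR1 and PGR goes against the label HR+. ERBB2, at 26.7 to 66.5 CPM in the vehicle tumours, was below KRT18 on average. Whether that level goes with the label Her2+ was not tested, nor was the identity of the line. CPM is the field's unit of reads scaled to a fixed library total, here after scaling by TMM factors, which correct for differences in library composition.

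None of the 9 genes passed an adjusted p-value of 0.05 in edgeR's quasi-likelihood test of evexomostat against vehicle (0 of 9), where 0.606% of all tested genes did (101 of 16653, 29 higher and 72 lower). With library sizes alone 34 genes were higher and 28 lower, and with upper quartile scaling 28 and 42. At an unadjusted p under 0.05 the count was 4 of 9, SERPINE2, SERPINB2, F3 and TFPI, all 4 lower under evexomostat, where 13.4% of all tested genes passed in either direction, 8.55% lower and 4.82% higher. Without vehicle replicate 001 it was 3 of 9, since TFPI no longer passed (edgeR unadjusted p 0.0966), where 24.4% of genes passed. The fitted change was below 0 in 7 of the 9, where 55.4% of all tested genes were below 0, and the median log2 fold change was -0.89 for the 9 and -0.04 over all tested genes. An estimate under -1 was found for 3 of the 9, SERPINB2, F3 and TFPI, and for 2.73% of all tested genes. The 9 genes were chosen with earlier results of these data known, so counts set beside these shares are no test of the set. In all 9 genes the groups overlapped, against 2.97% of tested genes whose groups did not, 1.64% with the treated tumours lower. The 9 comprised genes with group means close together (PLAU, PLAUR, PLAT), genes with most treated tumours at the low end (SERPINE2, SERPINB2), and genes whose vehicle tumours varied widely (F3, THBD, TFPI and, less so, TFPI2).

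**Figure D1:**
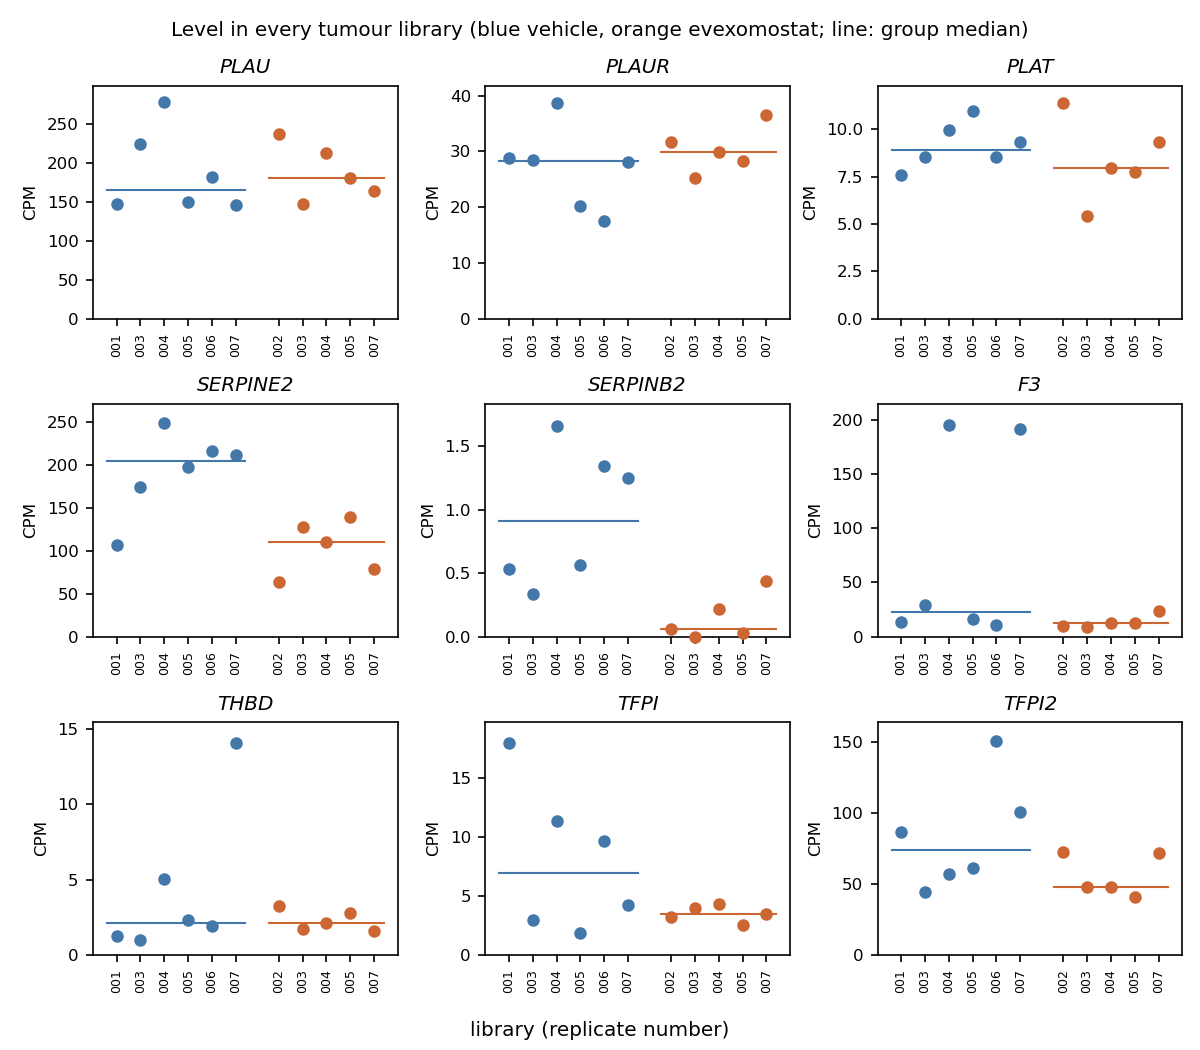
Level of each of the 9 genes in CPM (linear axes from 0) in every tumour library, named by replicate number, with blue points for vehicle, orange for evexomostat and a line at each group's median. F3 stood at 194.9 and 191.1 CPM in vehicle replicates 004 and 007 and at 29.5 CPM or less in the other 9 libraries, while the PLAU groups lay over each other.

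Some other tests of the same counts called 1 or 2 of the 9, while limma-voom without weights called none. DESeq2 called SERPINB2 (adjusted p 0.00749) and SERPINE2 (adjusted p 0.0156), where it called 3.92% of the genes with an adjusted p. limma-voom with sample quality weights called the same pair, at adjusted p-values of 0.0334 and 0.0147, where it called 6.36% of genes. edgeR without vehicle replicate 001 again called SERPINB2 (adjusted p 0.0453) and SERPINE2 (adjusted p 0.0175), where 5.22% of genes were called. The edgeR exact test with library sizes only called SERPINB2 (adjusted p 0.0193), where 2.24% of genes were called. The authors' deposited table lists 2 of the 9 with an adjusted p under 0.05, SERPINB2 at 0.0146 and F3 at 0.0301, where 0.952% of its genes are listed so. That share is over all 28152 symbols, those with low counts included, while the other shares here are over filtered genes. In the edgeR exact test with library sizes only, F3 had an adjusted p of 0.0614.

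**Figure D2:**
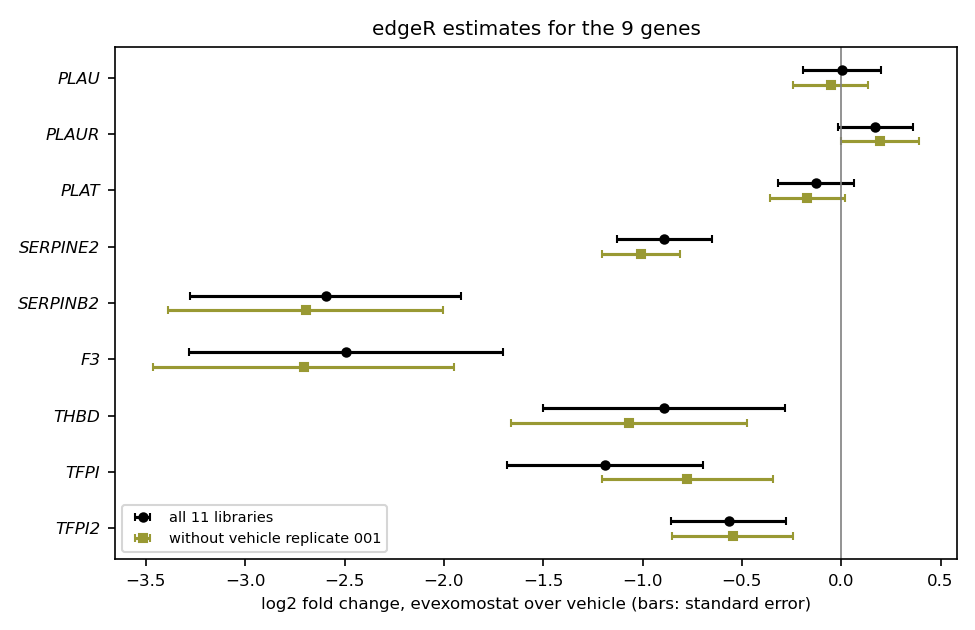
Log2 fold change of the 9 genes, evexomostat over vehicle, from edgeR, with bars of 1 standard error, for all 11 libraries (circles) and without vehicle replicate 001 (squares). PLAU, PLAUR and PLAT lay within 1 standard error of 0 with all libraries, SERPINB2 and F3 had the largest estimates and wide bars, and TFPI moved from -1.19 to -0.77 without that library.

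PLAU, the urokinase gene, had nearly the same mean in both groups. The vehicle tumours ranged from 146.9 to 278.4 CPM with a median of 166.0, and evexomostat replicates 002, 003, 004, 005 and 007 were at 237.5, 147.5, 213.6, 180.8 and 163.8 CPM. All 5 treated tumours lay inside the vehicle range. The group means were 188.2 ± 53.7 CPM (SD, n = 6) and 188.6 ± 36.7 (SD, n = 5), a log2 change of 0.00 with a 95% interval of -0.42 to 0.43 (edgeR adjusted p 0.996).

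PLAUR, the urokinase receptor, ranged from 17.5 to 38.7 CPM in the vehicle tumours (median 28.2). In the treated tumours, in the same order of replicates, it was at 31.7, 25.2, 29.8, 28.3 and 36.6 CPM. Vehicle replicate 004 held the highest level of PLAU and of PLAUR among all 11 libraries, and vehicle replicates 005 and 006 held the lowest PLAUR levels. Its log2 change was 0.17 (SE 0.19, 95% interval -0.24 to 0.58, edgeR adjusted p 0.768).

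PLAT, the gene of tissue plasminogen activator, was the least variable of the 9 in the vehicle tumours, with a coefficient of variation of 13.1%, from 7.56 to 10.96 CPM around a median of 8.92. The treated tumours were at 11.4, 5.43, 7.97, 7.71 and 9.30 CPM, so they held both the highest and the lowest level of the 11 libraries. For PLAT the log2 change was -0.13 (SE 0.19, 95% interval -0.54 to 0.29, edgeR adjusted p 0.843). For each of these 3 genes the interval leaves room for a change of less than 1.5-fold in either direction.

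SERPINE2, protease nexin 1, an inhibitor of thrombin, urokinase and tissue plasminogen activator, had lower levels in the treated tumours with an overlap that came from 1 vehicle library. Vehicle replicate 001 was at 107.0 CPM and the other 5 vehicle tumours at 174.4 to 248.7, with a median of 204.6 over all 6. Evexomostat replicates 002, 003, 004, 005 and 007 were at 63.6, 127.4, 110.0, 139.3 and 79.4 CPM, all below the vehicle median. The means were 192.7 ± 48.5 CPM (SD, n = 6) and 103.9 ± 31.9 (SD, n = 5), which gave a log2 change of -0.89 (standard error 0.24, 95% interval -1.40 to -0.38, edgeR unadjusted p 0.00239, adjusted p 0.117). Leaving out vehicle replicate 001, the library that made the overlap, separated the groups by construction. Without it the groups did not overlap in 8.35% of genes tested in that comparison. The estimate was then -1.01 (edgeR adjusted p 0.0175), where 5.22% of genes were called. On the 8 libraries whose replicate numbers occur in both groups it was also past the threshold with no block on the number (edgeR adjusted p 0.0315), where 4.42% of genes were called, and not with the block (edgeR adjusted p 0.0862).

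SERPINB2, plasminogen activator inhibitor 2, was scarce in every tumour and scarcer in the treated ones. It had 11 to 58 counts in the vehicle libraries, or 0.335 to 1.66 CPM with a median of 0.907. The treated libraries had 2, 0, 6, 1 and 14 counts, or 0.0621, 0, 0.217, 0.0331 and 0.435 CPM. A count of 0 in evexomostat replicate 003 allows up to 3 counts, which is 0.132 RPM there and covers counting error only. Of the 5 treated tumours, 4 were below every vehicle tumour, and evexomostat replicate 007 was above vehicle replicate 003. Its log2 change was -2.60 (SE 0.68, 95% interval -4.07 to -1.12, edgeR unadjusted p 0.00213, adjusted p 0.111), about 6.05-fold lower, and it rests on 180 counts in the 6 vehicle libraries and 23 in the 5 treated ones. It was -3.53 without evexomostat replicate 007, which held 14 of the 23 counts (edgeR adjusted p 0.117), and -0.71 on log2(RPM + 1), a scale that compresses low levels (limma-trend adjusted p 0.125).

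F3, tissue factor, split the vehicle tumours. Vehicle replicates 004 and 007 were at 194.9 and 191.1 CPM, and vehicle replicates 001, 003, 005 and 006 were at 13.8, 29.5, 16.3 and 11.2 CPM. The treated tumours were at 9.53, 8.99, 12.4, 13.01 and 23.6 CPM. No treated tumour had an F3 level near the high pair, and 4 of the 5 were below the vehicle median of 22.9 CPM. Vehicle replicates 003, 004 and 007 were above every treated tumour, and the other 3 vehicle tumours lay inside the treated range. The highest level was 17.4 times the lowest among the vehicle tumours and 2.62 times among the treated ones.

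The means of F3 were 76.1 ± 90.7 CPM (SD, n = 6) and 13.5 ± 5.90 (SD, n = 5), which gave a log2 change of -2.49 (standard error 0.79, 95% interval -4.20 to -0.79, edgeR unadjusted p 0.00746, adjusted p 0.185). The estimate was smaller without either library of the high pair, and no fit left out both. Without vehicle replicate 004 it was -1.95 (edgeR adjusted p 0.320), and without vehicle replicate 007 it was -1.98 (edgeR adjusted p 0.312). Tests on log values gave smaller changes, -1.56 in limma-voom (adjusted p 0.455) and -1.42 in limma-trend on log2(RPM + 1) (adjusted p 0.416).

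TFPI, the inhibitor of the tissue factor and factor VII complex, also varied more among the vehicle tumours. Vehicle replicates 001, 004 and 006 were at 18.0, 11.4 and 9.65 CPM and vehicle replicates 003, 005 and 007 at 2.97, 1.86 and 4.23 CPM. The treated tumours were at 3.23, 3.97, 4.31, 2.55 and 3.45 CPM, a narrow range inside that of the vehicle tumours. Its log2 change was -1.19 (SE 0.49, edgeR unadjusted p 0.0308, adjusted p 0.309). Without vehicle replicate 001, the highest of the 11, it was -0.77 (edgeR unadjusted p 0.0966, adjusted p 0.291), and limma-voom with quality weights gave -0.57 (adjusted p 0.416).

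TFPI2, a related secreted inhibitor of plasmin and other matrix proteases, was far more abundant than TFPI. It ranged from 44.4 to 151.0 CPM in the vehicle tumours (median 74.0) and was at 72.9, 48.0, 48.2, 40.9 and 71.9 CPM in the treated ones, all below the vehicle median. Vehicle replicates 006 and 007 held the highest levels. Its log2 change was -0.57 (SE 0.29, 95% interval -1.19 to 0.06, edgeR adjusted p 0.426), and it was -0.31 without vehicle replicate 006 (edgeR adjusted p 0.629).

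THBD, thrombomodulin, was low in all tumours but 1. Vehicle replicate 007 was at 14.1 CPM, vehicle replicate 004 at 5.04 and the other vehicle tumours at 0.981 to 2.32, while the treated tumours were at 3.26, 1.74, 2.10, 2.75 and 1.59 CPM. The medians were 2.11 CPM under vehicle and 2.10 under evexomostat. An estimated log2 change of -0.89 (standard error 0.61, adjusted p 0.588 in edgeR) rested on vehicle replicate 007, without which it was -0.01 (edgeR adjusted p 0.994), and limma-voom gave -0.28 (adjusted p 0.895). The same pair of vehicle tumours thus held the highest levels of F3 and of THBD, in reverse order.

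Promoter sequences are shown for the 4 genes of the set that hold a match to TGANTCA, where N is any base. This pattern is wider than the usual site of AP-1 factors, TGAGTCA or TGACTCA. AP-1 factors are known regulators of F3, SERPINB2 and PLAUR. RefSeq promoter entries (GRCh38.p14) were matched for 7 of the 9 genes by symbol, and those of PLAT and THBD were not matched. Each line gives the 250 bases before the gene's start, 5′ to 3′ on the gene's strand, with the match in capitals. They lie at chr1:94541760-94542009 (minus strand) for F3, chr18:63887455-63887704 (plus) for SERPINB2, chr19:43670170-43670419 (minus) for PLAUR and chr7:93890754-93891003 (minus) for TFPI2.
F3: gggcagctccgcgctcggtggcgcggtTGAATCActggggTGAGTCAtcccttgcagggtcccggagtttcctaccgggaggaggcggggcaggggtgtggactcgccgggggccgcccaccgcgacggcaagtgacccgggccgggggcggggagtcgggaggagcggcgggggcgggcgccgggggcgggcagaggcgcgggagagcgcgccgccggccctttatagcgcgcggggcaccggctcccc
SERPINB2: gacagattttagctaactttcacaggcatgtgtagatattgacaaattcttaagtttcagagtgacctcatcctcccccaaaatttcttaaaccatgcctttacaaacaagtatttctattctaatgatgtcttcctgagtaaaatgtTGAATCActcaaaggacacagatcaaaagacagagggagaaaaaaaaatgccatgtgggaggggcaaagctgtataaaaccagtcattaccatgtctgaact
PLAUR: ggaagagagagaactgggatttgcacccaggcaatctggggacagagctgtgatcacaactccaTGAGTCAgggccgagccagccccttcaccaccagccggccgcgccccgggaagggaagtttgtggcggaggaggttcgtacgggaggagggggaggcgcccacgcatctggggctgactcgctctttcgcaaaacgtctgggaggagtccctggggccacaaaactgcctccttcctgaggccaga
TFPI2: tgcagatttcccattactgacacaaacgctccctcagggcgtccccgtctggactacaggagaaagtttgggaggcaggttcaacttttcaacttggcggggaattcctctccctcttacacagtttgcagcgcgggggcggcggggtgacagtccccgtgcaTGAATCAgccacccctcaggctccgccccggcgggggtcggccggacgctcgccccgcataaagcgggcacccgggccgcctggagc

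The motif TGANTCA was searched on both strands, which read alike for these letters, and 6.57% of 35114 RefSeq promoter windows of the same length held it. F3 held 2 matches, whose first bases lie 223 and 210 bases before the start, and the others 1 each, 102 bases before the start in SERPINB2, 186 in PLAUR and 87 in TFPI2. The F3 match at 210 bases and the PLAUR match read TGAGTCA. Those of SERPINB2 and TFPI2 and the F3 match at 223 bases read TGAATCA, outside the usual site. The estimates of these 4 genes, none past the adjusted threshold in edgeR, were -2.49 for F3, -2.60 for SERPINB2, -0.57 for TFPI2 and 0.17 for PLAUR, and differences between the genes were not tested. PLAU, SERPINE2 and TFPI held no match in the windows listed, and sites farther from the start were not searched for any gene. A match in these letters is a description of the sequence only.

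Levels of different genes were compared per kilobase of merged exons (GENCODE release 29, an annotation of another build than the one named in the processing notes). By the vehicle median the order was PLAU (56.3 CPM per kb), TFPI2 (27.6), SERPINE2 (23.0), F3 (7.96), PLAUR (6.34), PLAT (1.35), TFPI (0.592), THBD (0.513) and SERPINB2 (0.330). Urokinase transcripts (PLAU) thus stood well above those of tissue plasminogen activator (PLAT). PLAU was also above TFPI2, the next gene in this order, in 6 of 6 vehicle and 5 of 5 treated tumours. Among neighbours in this order only PLAUR and PLAT had vehicle ranges that did not overlap, and TFPI2 and SERPINE2 exchanged places in 2 of the 6 vehicle tumours. F3 was above PLAUR in 4 of 6 vehicle tumours and in 0 of 5 treated ones, where evexomostat replicate 007 had them nearly equal, and TFPI was above THBD in 3 of 6 and 0 of 5. The treated medians were 4.30 for F3, 6.69 for PLAUR, 0.295 for TFPI and 0.511 for THBD. Such an order depends on the merged lengths, 11.7 kb for TFPI and 8.89 kb for SERPINE2 against 4.11 kb for THBD and 2.95 kb for PLAU. In CPM not divided by length the treated median of TFPI (3.45) was above that of THBD (2.10). Likewise the vehicle median of SERPINE2 (204.6 CPM) was above that of PLAU (166.0 CPM).

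**Figure D3:**
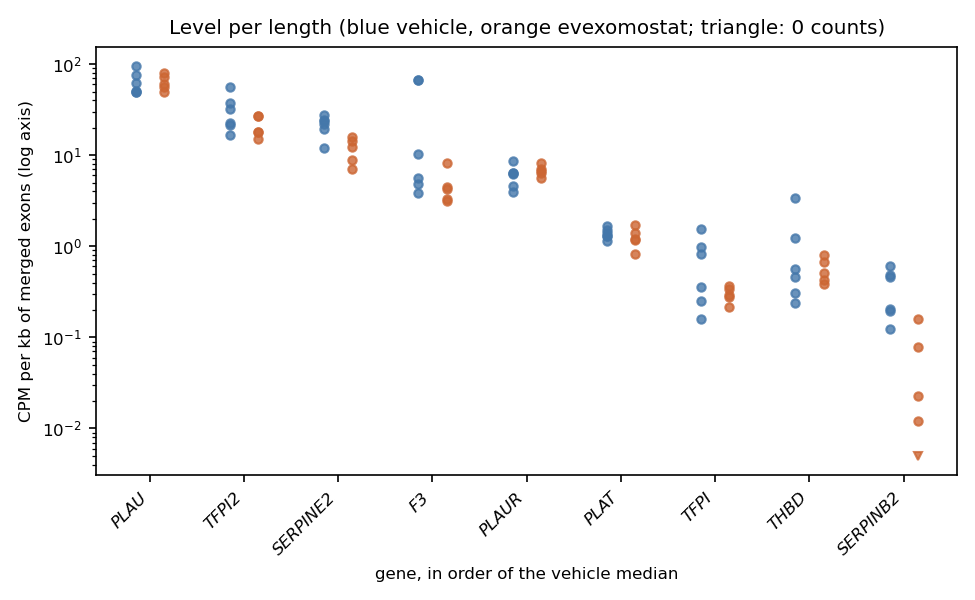
CPM per kilobase of merged exons on a log axis for the 9 genes in order of the vehicle median, with 1 point per library, blue for vehicle and orange for evexomostat, and a triangle for a library with 0 counts. PLAU had the highest median in both groups, 56.3 and 61.3, with F3 above it in vehicle replicate 007, and SERPINB2 had the lowest.

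Ratios of counts within a library do not depend on the scaling between libraries, and they are given as descriptions with no test. The ratio of F3 to TFPI counts ranged from 0.763 in vehicle replicate 001 to 45.2 in vehicle replicate 007 and from 2.27 to 6.83 in the treated tumours. All 5 treated ratios fell between the extremes of the vehicle tumours, of which 4 were above them and 2 below them. The ratio of PLAU to SERPINE2 counts was 0.695 to 1.37 in the vehicle tumours and 3.74, 1.16, 1.94, 1.30 and 2.06 in the treated ones. Against PLAT, the PLAU count was 13.6 to 28.0 times as high under vehicle and 17.6 to 27.2 times under evexomostat, so the treated tumours lay inside the vehicle range.

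**Figure D4:**
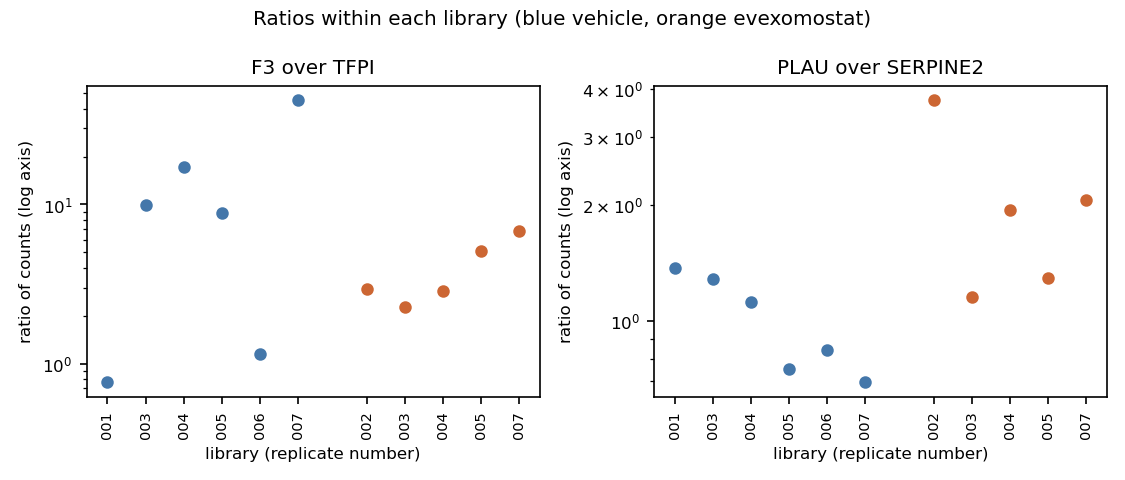
Ratio of F3 to TFPI counts (left) and of PLAU to SERPINE2 counts (right) in each library, on log axes, with blue points for vehicle and orange for evexomostat. The F3 to TFPI ratio spread from 0.763 to 45.2 among vehicle tumours and from 2.27 to 6.83 among treated ones, and the PLAU to SERPINE2 ratio reached 3.74 in evexomostat replicate 002.

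The genes most like each member over the 11 libraries were found by Pearson's r of log2 CPM among the 13067 or 13068 other tested genes with a mean log2 CPM of at least 1. Such r values are the highest of that many, carry no p-value and share the library depth and composition of the same tumours. For F3 they were FMN1 (r 0.949, Spearman's rho 0.773), MBOAT2 (r 0.947, rho 0.827) and QSOX1 (r 0.939, rho 0.964), and without vehicle replicates 004 and 007 r was 0.708, 0.719 and 0.849. For THBD they were MAN1A1, FASTKD5 and DNAJC10 (r 0.946, 0.943 and 0.928), with r of 0.799, 0.820 and 0.694 without the same pair. For SERPINE2 they were SGPP2 (r 0.953, rho 0.809), SIPA1L2 (r 0.948, rho 0.873) and the complement gene C3 (r 0.937, rho 0.855). SGPP2, a phosphatase of sphingosine 1-phosphate, averaged 33.5 CPM under vehicle and 11.7 under evexomostat (log2 fold change -1.52, SE 0.30, edgeR adjusted p 0.0465). Of all tested genes 0.606% were called. SGPP2 was picked for its likeness to SERPINE2 over both groups, so a lower treated level follows from that choice and is no separate support.

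For SERPINB2 the closest genes were FBXO36, TMEM106A and SH3GLB1 (r 0.922, 0.881 and 0.879), and for TFPI they were ENOX1, FAM177A1 and ALMS1-IT1 (r 0.953, 0.902 and 0.899). Those of PLAU were P3H2, RNGTT and BICRAL (r 0.880, 0.847 and 0.834), and those of PLAT were CLMP, FDPS and SGTB (r 0.912, 0.909 and 0.907). PLAUR had RPE65, ATAD3A and C17orf67 (r 0.920, 0.863 and 0.820), and without vehicle replicates 005 and 006 r was 0.846, 0.645 and 0.588. TFPI2 had TRAM2-AS1, LRRC8C and HPD (r 0.872, 0.808 and 0.807), and without vehicle replicates 006 and 007 the last pair were at 0.451 and 0.462. No gene appeared for 2 members.

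Among 16 partners of fibrinolysis, 14 were tested and 0 passed the adjusted threshold in edgeR, where 0.606% of all tested genes did. An unadjusted p under 0.05 was found for 0 of them, and for 13.4% of all tested genes. None of the alternatives called any of the 10 that the naming rule picked. Of the 14, 5 had estimates above 0 and 9 below, with a median log2 fold change of -0.10. PLG, the substrate of both activators, had too few counts to be tested. ANXA2 and S100A10, which form a plasminogen-binding complex on cell surfaces, had vehicle means of 2972 ± 639 and 420 ± 85.1 CPM (SD, n = 6) and treated means of 2757 ± 365 and 384 ± 75.1 (SD, n = 5). LRP1, the receptor that clears complexes of activators with serpins, was at 57.1 CPM in vehicle replicate 001, at 207.2 to 532.7 in the other vehicle tumours and at 117.9 to 241.1 in the treated ones (log2 fold change -0.71, SE 0.40, edgeR adjusted p 0.480). Without vehicle replicate 001 it was -0.92 (edgeR unadjusted p 0.00490, adjusted p 0.0650). LRP1 was then the 1 gene of the list with an unadjusted p under 0.05, where 24.4% of genes passed. MRC2, which binds the urokinase and receptor complex, PLGRKT, a plasminogen receptor, SORL1, F12, KLKB1, A2M and SERPINA5 had edgeR adjusted p-values from 0.523 to 0.935.

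Of 29 genes of the coagulation cascade and the thrombin receptors, 18 were tested and 0 passed the adjusted threshold in edgeR. At an unadjusted p under 0.05 there were 2 (11.1%), SERPINA10 and PROCR, both lower, where 13.4% of all tested genes passed. Without vehicle replicate 001 there were 3, where 24.4% of genes passed. PROCR, the endothelial protein C receptor, ranged from 4.75 to 14.98 CPM under vehicle, with vehicle replicates 004 and 007 highest as for F3 and THBD, and from 4.62 to 6.05 CPM under evexomostat (log2 fold change -0.73, SE 0.31, edgeR adjusted p 0.325). SERPINA10, an inhibitor of factor Xa, had at most 38 counts in a library, at 0.820 ± 0.421 CPM (SD, n = 6) and 0.347 ± 0.0953 (SD, n = 5), which gave a log2 change of -1.25 (standard error 0.43, edgeR adjusted p 0.215). It was called without vehicle replicate 001 (edgeR adjusted p 0.0220), where 5.22% of genes were called. It was also called by limma-voom with quality weights (adjusted p 0.0180), which called 6.36% of genes. The vitamin K cycle genes VKORC1, VKORC1L1 and GGCX and the vitamin K dependent ligands PROS1 and GAS6 were the most abundant of the list, at group means of 66.1 to 121.9 CPM, with edgeR adjusted p-values of 0.666 to 0.892.

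The thrombin receptor F2R was at 3.98 ± 1.99 CPM (SD, n = 6) with vehicle, while treated tumours had 6.00 ± 1.61 (SD, n = 5) (log2 fold change 0.59, edgeR adjusted p 0.532), and F2RL2 and PROZ had edgeR adjusted p-values of 0.538 and 0.567. Of the list 11 genes had too few counts to be tested, among them F2, F5, F7, F9 and the 3 fibrinogen genes, while F8, F10, F11, F13A1, VWF and PROC were tested and none passed in edgeR. FGA and FGB had 0 counts in all 11 libraries. SERPINH1, a collagen chaperone, and SERPINB6, an intracellular inhibitor, were at 205.2 and 67.2 CPM on average under vehicle, with edgeR adjusted p-values of 0.764 and 0.976.

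**Figure D5:**
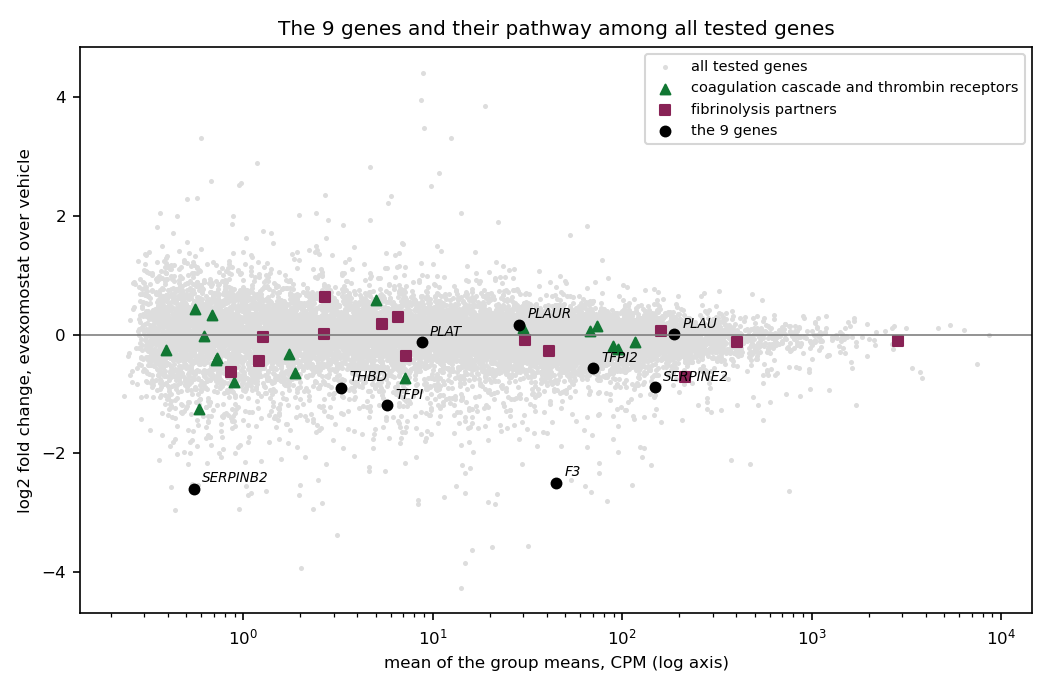
Log2 fold change from edgeR against mean level (CPM, log axis) for all tested genes (grey), 18 coagulation genes (green triangles), 14 fibrinolysis partners (purple squares) and the 9 genes (black circles, named). SERPINB2 and F3 lay at -2.60 and -2.49, below all tested genes of both pathway lists, whose lowest was SERPINA10 at -1.25.

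Host cells can make several of these transcripts, and whether mouse reads were removed is not stated. In bulk tumours fewer cells of a type and less RNA per cell cannot be told apart. The endothelial markers CDH5, TIE1 and EMCN had at most 2, 9 and 5 counts in any library, while PECAM1 had 62 to 232 and KDR 81 to 318. The summed level of all 10 endothelial markers was 13.9 to 22.2 CPM under vehicle and 16.4 to 19.8 under evexomostat. The platelet markers PF4, PPBP and GP9 had 0 counts throughout, while ITGA2B had 9 to 78 and GP1BA 16 to 72. The 10 leukocyte markers summed to 139.4 to 273.8 CPM under vehicle and 106.6 to 193.8 under evexomostat. Of these, FCGR3A had 2 counts or fewer, CD68 had 469 to 2012 and S100A9 had 440 to 3630. The 10 fibroblast markers summed to 430.1 to 2100 and 541.2 to 1122 CPM. In edgeR 0 of 7 tested endothelial, 0 of 9 leukocyte, 0 of 10 fibroblast and 0 of 3 platelet genes passed the adjusted threshold. At an unadjusted p under 0.05 these counts were 0, 0, 0 and 1, where 13.4% of all tested genes passed. The platelet gene was GP1BA (1.83 and 1.14 CPM on average), which was called lower without vehicle replicate 001, where 5.22% of genes were called. Without that library the unadjusted counts were 0, 1, 0 and 2, where 24.4% of genes passed. The 6 platelet markers summed to 1.65 to 5.18 CPM under vehicle and 2.74 to 3.15 under evexomostat. The 12 skeletal muscle markers summed to 4.47 to 22.7 CPM under vehicle and 6.33 to 521.5 under evexomostat, highest in replicate 005. At an unadjusted p under 0.05, 6 of the 7 tested muscle genes were higher, where 4.82% of all tested genes were, and 0 of the 7 passed the adjusted threshold in edgeR. ACTA1 was at 139.6 CPM in evexomostat replicate 005 and at 0.590 to 23.4 in the other treated tumours, against 0.487 to 5.96 under vehicle. The part of host cells in the levels of the 9 genes was not tested.

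Some genes share exons with others in GENCODE release 29, and the labelled library kit is not described as keeping strand. PLAU overlaps C10orf55 on the opposite strand, which averaged 2.83 CPM against 188.4 for PLAU. TFPI2 overlaps GNGT1 on the opposite strand, at 0.949 CPM against 71.2, and SERPINB2 overlaps SERPINB10 on the same strand, which had at most 10 counts in a library. Reads in those shared stretches cannot be assigned to 1 of the genes.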

How the data were processed

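Per the file headers, the authors deposited whole-number read counts per gene symbol and RPM values, which are counts scaled to each library's total. Per the submitters' processing notes, bcl2fastq 2.17, STAR 2.7.5c, featureCounts, Subread and edgeR were used with GRCh37 (hg19), with no roles. Settings, and whether mouse reads were filtered, are not given in the sources used here. The authors' deposited table also holds log2 fold changes with raw and adjusted p-values, from a test that is not stated. Columns were matched to tumours by the code in the sample description.

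Genes were kept by filterByExpr (minimum count 10, minimum total 15), scaled by TMM and tested by quasi-likelihood in edgeR 4.0.16 under R 4.3.3, with Benjamini-Hochberg adjustment over 16653 genes and a threshold of 0.05. Standard errors were taken from the F statistic, and 95% intervals use its degrees of freedom. DESeq2 1.42.0, limma 3.58.1 and the alternatives of the closing section repeated the comparison. On simulated counts with 200 of 16504 tested genes changed, edgeR recovered 42% of changes of 1 log2 unit and 93% of changes of 2. It had 4.93% false calls there, while DESeq2 had 16.2% and the exact test 14%. The counts were drawn from edgeR's own dispersion estimates, with no library made unlike the rest as vehicle replicate 001 is. False calls of these tests in the tumour data can therefore differ and were not measured.

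The members and gene lists were chosen with earlier results of these data known. All members were named. Of 2 pathway lists the rule named called genes, the 5 most abundant and the 3 with the smallest p in each direction, of other serpins called genes and the 3 most abundant, and per member the 3 genes of highest r. An item that the rule picks is not reported here. Replicate numbers 003, 004, 005 and 007 occur in both groups, and nothing says that they pair the tumours.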

Additional observations from a re-analysis of the deposited data

Results flagged for a closer look

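In 18 groups of values (9 genes in the vehicle and in the evexomostat tumours) the highest and the lowest library were compared with the rest of their group. The measure was the gap to the nearest library over the range of the group, 0.724 and 0.690 for the 2 cases below. A chance rate of about 1 in 20 groups was taken as a setting and was not checked on these data. F3 was at 23.6 CPM in evexomostat replicate 007, against 8.99 to 13.01 CPM in the other treated tumours. THBD reached 14.1 CPM in vehicle replicate 007, and the other vehicle tumours had 0.981 to 5.04 CPM.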

How the results depend on the processing

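Of 24 alternatives the edgeR exact test was chosen after seeing the data, and for the changes below the cause was not tested. The 101 genes called by edgeR became 62 with library sizes only, 649 in DESeq2, 1059 in limma-voom using quality weights, 373 in the exact test, and 1 to 865 when each library was left out (865 without vehicle replicate 001, and 2, 1 and 3 without evexomostat replicates 002, 005 and 007). The 0 members called became 2 with DESeq2, 2 with quality weights, 1 with the exact test and 0 to 2 when each library was left out, with 2 only without vehicle replicate 001. In 19 of the 24 alternatives no member was called. SERPINB2 was not tested at a minimum mean log2 CPM of 1.

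Same-numbered libraries deviated with correlations of -0.27, 0.07, 0.05 and -0.10, and they were not taken as pairs. With a replicate block on those 8 libraries 107 genes and 0 members were called, and with no replicate block on the same 8 libraries 733 genes and 1 member. In the order of block and no block, PLAU was at -0.15 and -0.19 on the log2 scale, S100A10 at 0.052 and 0.020, MRC2 at -0.090 and -0.11, PLGRKT at 0.049 and 0.047, and GGCX at -0.0031 without the block. TFPI, at -1.19 with all libraries, came to -0.22 (block) and -0.53 (no block) on these 8 libraries (edgeR unadjusted p 0.558 and 0.305). PLAU was at -0.055 with quality weights. The median over all genes shifted by 0.11 and 0.12 (log2) in the RPM comparisons, which both gave ANXA2 at 0.0044. Leaving out each library gave PLAU -0.093 to 0.15, MRC2 -0.041 to 0.21, PLGRKT -0.36 to 0.036 and SERPINB6 -0.024 to 0.16. The other 8 members kept their direction in every alternative run. SERPINB2, at 0 to 58 counts a library, is the member that depth limits most.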

Other observations

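SERPINA3 and SERPINA1, acute phase inhibitors of neutrophil proteases, were looked at after their values had been seen. SERPINA3 averaged 44.7 ± 16.4 CPM with vehicle (SD, n = 6) and 22.7 ± 4.53 CPM in treated tumours (SD, n = 5). Its log2 change was -0.98 (standard error 0.27, adjusted p 0.124 in edgeR). Vehicle replicate 005 was at 18.3 CPM, inside the treated range of 17.2 to 28.1, and the other vehicle tumours were at 37.2 to 64.8. SERPINA1 averaged 13.2 ± 3.01 and 8.74 ± 3.45 CPM with a log2 change of -0.59 (standard error 0.28, adjusted p 0.383 in edgeR).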
